A study of Mus musculus with 10 samples.

Results

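The 10 genes described here act in vascular growth signalling and were followed in colorectal tumours of mice and in the colon tissue beside them. They are the ligand genes Vegfa, Vegfb, Vegfc and Pgf, the angiopoietin genes Angpt1 and Angpt2, the receptor gene Flt4, the co-receptor genes Nrp1 and Nrp2, and the transcription factor gene Hif1a. They were taken by gene symbol, and all 10 were found among the 24525 genes of the expression table. Male C57BL/6 mice (C57BL/6N in the protocol) of 7 weeks received 1 injection of azoxymethane (AOM), a mutagen, at 12.5 mg/kg. From 1 week later they drank 2% dextran sulfate sodium (DSS), an irritant of the colonic lining, for 5 days in each of 3 cycles of 3 weeks. Polyadenylated RNA was sequenced from 5 tumours and 5 samples of adjacent tissue taken 10 weeks after AOM. Both groups therefore carry the AOM and DSS treatment, and no library bears an untreated label. A single mouse is named in the source label of every library, whereas the series text calls the tissues matched and the titles number them 1 to 5 in each group, so it is not settled which samples come from separate animals, and p-values measure only the spread between samples, which may be technical.

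Vascular endothelial growth factors (VEGFs) are secreted proteins that bind receptor tyrosine kinases on endothelial cells. VEGF-A acts mainly through KDR to drive sprouting and leakiness of blood vessels, placental growth factor and VEGF-B bind FLT1, and VEGF-C acts through FLT4 on lymphatic vessels. Angiopoietins bind the receptor TEK: angiopoietin 1 steadies vessels, whereas angiopoietin 2, which endothelial cells release, usually opposes it. Neuropilins are co-receptors shared by VEGFs and class 3 semaphorins, and HIF1A is the oxygen-regulated factor for which Vegfa is a classic target. HIF1A is controlled largely through the stability of its protein, which transcript levels do not show.

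The values are FPKM, fragments per kilobase of transcript, scaled to the mapped fragments of a library, as deposited, with 462009 to 484712 FPKM in total per library. The depth estimated from the steps between low values was 21700000 to 27000000 fragments per library. Colonic epithelium was present in every library, with Epcam, an epithelial adhesion protein, at 741 to 850 FPKM in tumours and 881 to 1077 FPKM in adjacent samples. Over all tested genes the median log2(FPKM + 1) change was 0.35, toward tumours, and changes are to be read against that shift. Tumour 2 stood apart from the other tumours in several of the 10 genes, and values without it are given where it matters.

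Of the 10 genes 6, namely Vegfc, Pgf, Angpt1, Angpt2, Flt4 and Nrp1, were higher in every tumour than in every adjacent sample, and Vegfa, Vegfb, Nrp2 and Hif1a overlapped between the groups. Separation with tumours above was seen in 46.5% of the 13016 tested genes, and with tumours below in 14.3%. Angpt1 was below the filter of a mean of 1 FPKM over all libraries and was not among the 9 genes tested. With limma (log2(FPKM + 1), Benjamini-Hochberg adjustment over all tested genes, threshold 0.05), 5 of these 9 rose and 0 fell, as was so at an unadjusted p under 0.05. The calls in the whole table were frequent, with 57.2% of genes higher and 19.3% lower, so the share of the 9 that rose was close to that of all genes. The same 5 genes rose with each library's median subtracted and with quantile normalization, where 34.5% and 36.6% of all genes were higher and 33.3% and 30.2% were lower. They were also past the threshold in every fit that left out 1 library. In bulk tissue a higher number of cells of a type and more RNA per cell cannot be told apart.

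**Figure D1:**
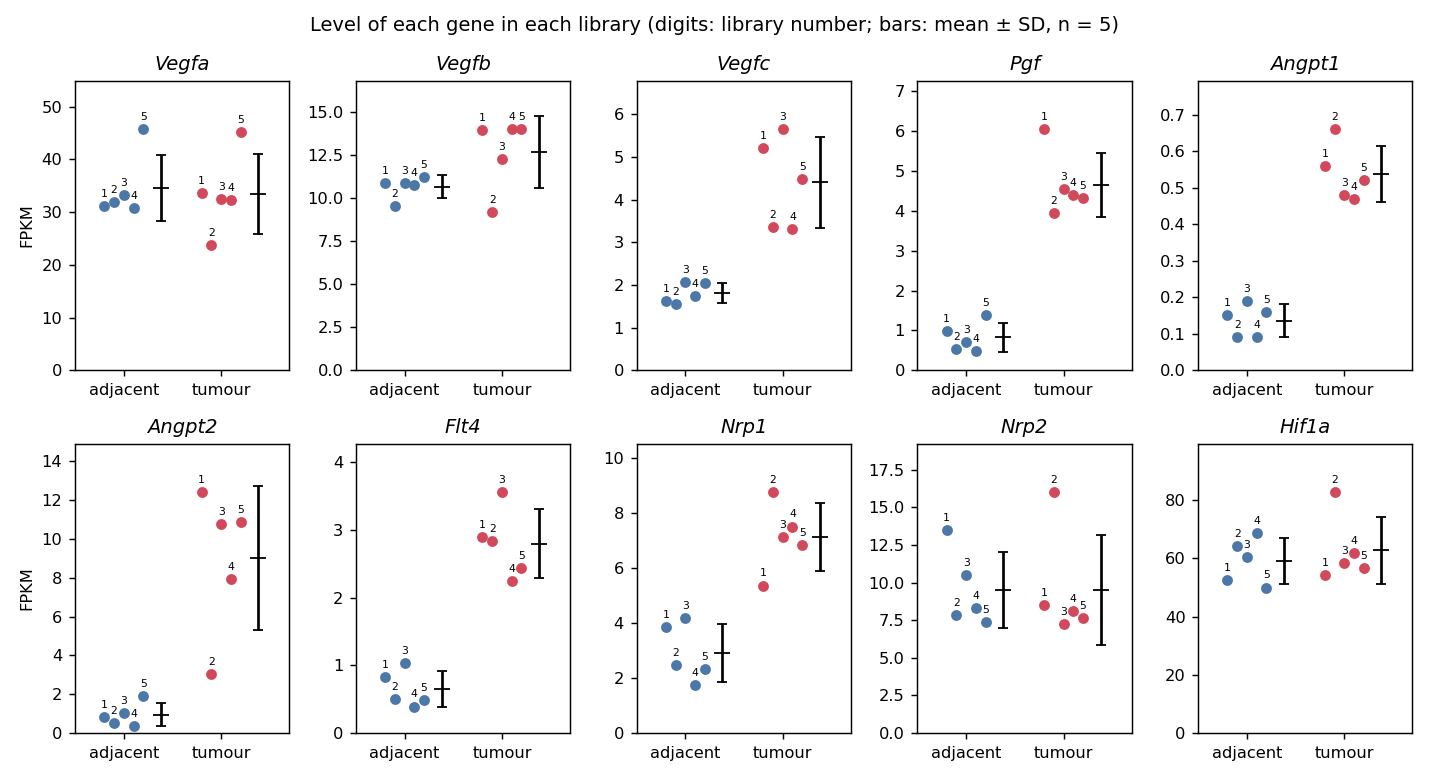
FPKM of each of the 10 genes (y axes, each from 0) in the 5 adjacent and 5 tumour libraries (x axis). Points are libraries with their number, and bars are mean ± SD. The 5 tumour points lie above all adjacent points for Vegfc, Pgf, Angpt1, Angpt2, Flt4 and Nrp1, and tumour 2 lies apart for Nrp2 and Hif1a.

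The levels spanned a wide range. FPKM are corrected for transcript length, so genes can be set side by side. In adjacent tissue Hif1a was the most abundant, at 59.2 ± 7.85 FPKM (SD, n = 5), followed by Vegfa at 34.5 ± 6.31 FPKM and, with overlapping ranges, Vegfb at 10.7 ± 0.662 FPKM and Nrp2 at 9.51 ± 2.53 FPKM. Nrp1 and Vegfc followed, and Angpt2, Pgf and Flt4 were each below 1 FPKM on average, with ranges that overlapped. Angpt1 was lowest, at 0.136 ± 0.0445 FPKM. In tumours the order at the top and at the bottom was the same, but Angpt2 moved from rank 7 to rank 5, where its range overlapped those of Nrp2 and Nrp1.

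Vegfa, the main angiogenic ligand (chromosome 17, 46016993 to 46032377, GRCm38), overlapped between tumours and adjacent tissue and did not pass the test. It was at 33.6, 23.8, 32.6, 32.3 and 45.2 FPKM in tumours 1 to 5 and at 31.1, 31.8, 33.2, 30.9 and 45.7 FPKM in adjacent samples 1 to 5. Number 5 was the highest in each group and tumour 2 lowest of all. The log2 change was -0.06 (SE 0.16, limma adjusted p = 0.76). With medians subtracted Vegfa fell, with a log2 change of -0.39 (limma adjusted p = 0.0381), and with quantile normalization it was at -0.19 (adjusted p = 0.31). The gene-level values do not separate the splice forms of Vegfa.

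Vegfb, a ligand of FLT1 (chromosome 19, 6982472 to 6987651), was at 14.0, 9.22, 12.3, 14.0 and 14.0 FPKM in tumours 1 to 5 and at 9.52 to 11.2 FPKM in adjacent samples. Tumours 1, 3, 4 and 5 lay above all adjacent samples, and tumour 2 lay below them all. The log2 change of 0.22 (SE 0.11) did not pass (limma adjusted p = 0.0907). Without tumour 2 it was 0.32 and passed (adjusted p = 0.00188), but with medians subtracted the sign turned, to -0.11 (adjusted p = 0.318), as it did with quantile normalization. With like-numbered libraries as a block the change of 0.22 passed (adjusted p = 0.0331).

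Vegfc, the ligand of lymphatic growth (chromosome 8, 54077532 to 54186454), was at 5.22, 3.36, 5.65, 3.30 and 4.48 FPKM in tumours 1 to 5. In adjacent samples 1 to 5 it was at 1.62, 1.55, 2.06, 1.74 and 2.05 FPKM. Every tumour was above every adjacent sample, with tumours 2 and 4 the lowest of the tumours. Vegfc rose 2.44-fold in mean FPKM (log2 change 0.93, SE 0.14, limma adjusted p = 0.000155), which was 0.42 with quantile normalization (adjusted p = 0.0237).

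Pgf, placental growth factor (chromosome 12, 85166637 to 85177785), had the largest change of the VEGF ligands tested. It was at 6.05, 3.95, 4.54, 4.39 and 4.32 FPKM in tumours 1 to 5 and at 0.99, 0.54, 0.72, 0.47 and 1.39 FPKM in adjacent samples 1 to 5. The lowest tumour was well above the highest adjacent sample, number 5. Pgf rose 5.66-fold in mean FPKM (log2 change 1.65, SE 0.15, limma adjusted p = 1.88e-05), larger than that of 95.2% of the tested genes. Its adjacent levels corresponded to about 23 to 73 fragments by the estimated depth and the longest annotated coding transcript of 2080 bases, and its tumour levels to about 188 to 293.

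The makeup of the ligand pool differed between the groups. Over Vegfa, Vegfb, Vegfc, Vegfd and Pgf, the summed level was 48.1 ± 7.17 FPKM in adjacent samples and 55.8 ± 10.0 FPKM in tumours. Vegfa made up 71.7% ± 2.53 of the sum in adjacent samples and 59.7% ± 3.80 in tumours (SD, n = 5), and the highest tumour, number 5 at 66.2%, was below the lowest adjacent sample, number 1 at 69.1%. Pgf made up 1.67% ± 0.555 and 8.47% ± 1.50, and Vegfc 3.77% ± 0.396 and 7.95% ± 1.67. Vegfb kept a similar share, 22.4% ± 2.41 and 22.9% ± 1.91. Shares within a library are the same under any single scaling factor per library, but not under quantile normalization, and no test was made of them. Vegfd, the other lymphatic ligand, was below the filter, at 0.222 ± 0.119 and 0.556 ± 0.314 FPKM, with overlapping groups.

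**Figure D2:**
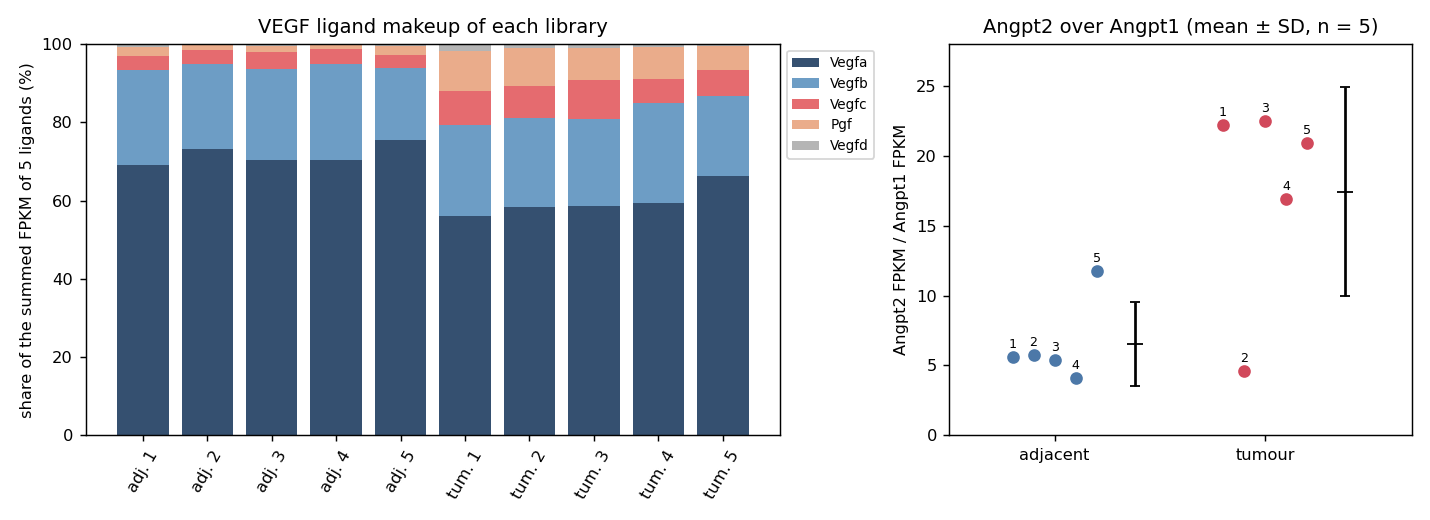
Left, the share of the summed FPKM of 5 VEGF ligands (y axis, percent) in each library (x axis). Right, the ratio of Angpt2 to Angpt1 FPKM (y axis) in adjacent and tumour libraries, with points numbered by library and bars for mean ± SD. Vegfa takes a smaller share in each tumour than in any adjacent sample, and tumour 2 has a ratio of 4.64, among the adjacent values.

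Start-site sequence was available from RefSeq (GRCm38) for 8 of the 10 genes, in 10 windows of 250 bases before a start. The upstream windows of the ligands Vegfa, Vegfb and Vegfc, of which Vegfc alone rose, and that of Hif1a, which did not pass, are shown. The window of Hif1a lies within the annotated span of the gene, before an internal start. The window of Nrp1, which rose, is not shown. Capitals mark ACGTG and GCGTG, the cores of hypoxia response elements, on either strand (CACGT and CACGC when read in reverse).
Vegfa, chr17:46032378-46032627, minus strand: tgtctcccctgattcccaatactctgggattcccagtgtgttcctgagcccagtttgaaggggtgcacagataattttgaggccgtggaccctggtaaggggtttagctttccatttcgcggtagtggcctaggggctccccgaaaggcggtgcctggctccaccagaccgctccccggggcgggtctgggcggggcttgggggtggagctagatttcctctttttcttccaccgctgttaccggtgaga
Vegfb, chr19:6987652-6987901, minus strand: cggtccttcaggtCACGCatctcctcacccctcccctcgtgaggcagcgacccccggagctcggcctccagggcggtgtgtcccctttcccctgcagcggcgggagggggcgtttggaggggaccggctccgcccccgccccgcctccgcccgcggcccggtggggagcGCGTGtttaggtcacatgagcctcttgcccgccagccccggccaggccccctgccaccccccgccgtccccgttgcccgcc
Vegfc, chr8:54077282-54077531, plus strand: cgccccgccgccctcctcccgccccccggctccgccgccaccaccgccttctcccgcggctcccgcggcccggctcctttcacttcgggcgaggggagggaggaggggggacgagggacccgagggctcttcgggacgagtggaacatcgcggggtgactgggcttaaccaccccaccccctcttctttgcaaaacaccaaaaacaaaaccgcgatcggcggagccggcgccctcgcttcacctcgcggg
Hif1a, chr12:73907617-73907866, plus strand: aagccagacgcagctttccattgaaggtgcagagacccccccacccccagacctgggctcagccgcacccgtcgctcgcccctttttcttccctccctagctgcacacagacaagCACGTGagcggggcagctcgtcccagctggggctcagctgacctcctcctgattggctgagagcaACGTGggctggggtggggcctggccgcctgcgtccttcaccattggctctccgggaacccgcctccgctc
ACGTG was found in 16.6% and GCGTG in 28.2% of all 32851 promoter windows of this length, and either in 38.6%. Of the 10 windows of these genes 6 held either motif. These windows were 59.2% to 76.4% G and C, against a median of 52.4% over all windows. Both motifs hold a CG, and the shares were not matched for base makeup, so they do not show an excess. The window of Hif1a held 3 matches to ACGTG, of which a pair overlap in CACGTG, and that of Vegfb held 2 matches to GCGTG. The windows of Vegfc, Flt4 and the most upstream Vegfa start held neither. That of Nrp1, which rose, held GCGTG at 1 place, and that of Nrp2, which did not pass, held it at 2 places. The second Vegfa window, chr17:46025164-46025413, which overlaps an exon and is not shown, held each motif at 1 place, and 1 of 2 Pgf windows held GCGTG. The T-cell factor motif of the Wnt pathway, ATCAAAG on either strand, was in 1 of the 10 windows, that of Nrp2, and in 3.21% of all windows. A match is a stretch of letters in this window and not a measured site.

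Angpt2, the angiopoietin that endothelial cells release (chromosome 8, 18690263 to 18741562), changed most among the tested genes of this set. It was at 12.4, 3.06, 10.8, 7.94 and 10.9 FPKM in tumours 1 to 5 and at 0.84, 0.52, 1.02, 0.37 and 1.88 FPKM in adjacent samples 1 to 5. Tumour 2 was far below the other 4 tumours, yet above the highest adjacent sample, number 5. Angpt2 rose 9.74-fold in mean FPKM (log2 change 2.32, SE 0.33, limma adjusted p = 0.00011), larger than that of 98.8% of the tested genes. Without tumour 2 the log2 change was 2.61.

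Angpt1, the vessel-steadying ligand of TEK (chromosome 15, 42424667 to 42676977), was low throughout. It was at 0.56, 0.66, 0.48, 0.47 and 0.52 FPKM in tumours 1 to 5 and at 0.15, 0.09, 0.19, 0.09 and 0.16 FPKM in adjacent samples 1 to 5. The groups did not overlap, with means 3.96-fold apart. These levels corresponded to about 8 to 22 fragments per adjacent library and 45 to 64 per tumour. With no filter on low values, where 44.5% of 19733 genes were higher and 14.9% lower, its log2 change was 0.44 (SE 0.04, limma adjusted p = 4.56e-05), on a scale that understates the change of so low a gene.

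Both angiopoietins were higher in tumours, but in unequal measure. The ratio of Angpt2 to Angpt1 was 22.2, 4.64, 22.5, 16.9 and 20.9 in tumours 1 to 5 and 5.60, 5.78, 5.37, 4.11 and 11.8 in adjacent samples 1 to 5. In 4 tumours it was above every adjacent sample, and in tumour 2 it was below 4 of the 5. The mean log2 ratio was 1.32 higher in tumours (exact two-sided permutation test, p = 0.0397, where the smallest p of 5 against 5 is 0.00794). Angpt1 was at 0.09 FPKM in adjacent samples 2 and 4. At so low a level the plan was to give the ratio without a test, so its p-values go beyond the plan and are only a description. Without tumour 2 the difference was 1.75 (exact permutation p = 0.0159, the smallest possible with 4 tumours against 5 adjacent samples). Without any other single library it was 1.18 to 1.56 and did not pass (exact permutation p from 0.0635 to 0.0794).

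The list of other angiopoietin and TIE genes holds Angpt4, Tek and Tie1. It also holds Angptl2, Angptl4 and Ptprb, which are neither angiopoietins nor TIE receptors. All 6 rose (median log2 change 1.65 against 0.35 over all tested genes), where 57.2% of all tested genes were higher. Angptl2, an angiopoietin-like secreted protein, rose 5.18-fold in mean FPKM, from 4.47 ± 1.97 to 23.1 ± 4.66 FPKM. Angpt4, a further TEK ligand, was at 6.10, 8.41, 3.97, 6.03 and 6.31 FPKM in tumours 1 to 5 and at 0.84, 0.42, 0.85, 0.16 and 0.82 FPKM in adjacent samples 1 to 5 (log2 change 2.14, SE 0.19). Here tumour 2 was the highest tumour, where it was the lowest for Angpt2. The receptor Tek rose least, by 0.69 (SE 0.17, limma adjusted p = 0.00315), with overlapping groups, and it did not pass with medians subtracted (0.36, adjusted p = 0.0743) or quantile normalization (0.24, adjusted p = 0.188). Its partner Tie1 had a log2 change of 1.39 (SE 0.15), and of 0.91 with quantile normalization.

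**Figure D3:**
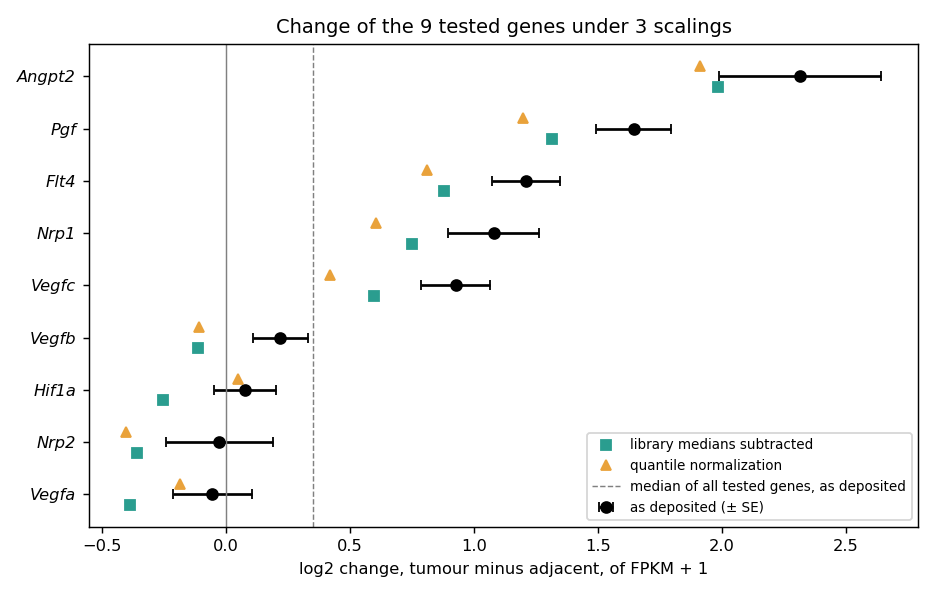
Log2 change of FPKM + 1, tumour minus adjacent (x axis), of the 9 tested genes (y axis), as deposited with its SE, with library medians subtracted and with quantile normalization. Angpt2, Pgf, Flt4, Nrp1 and Vegfc lie to the right of 0 under all 3 scalings, Vegfa and Nrp2 lie to the left, and Vegfb and Hif1a have both signs.

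Flt4, the VEGF-C receptor of lymphatic endothelium (chromosome 11, 49609679 to 49652739), was at 2.90, 2.83, 3.56, 2.25 and 2.44 FPKM in tumours 1 to 5. In adjacent samples 1 to 5 it was at 0.83, 0.50, 1.03, 0.39 and 0.49 FPKM. All tumours were above all adjacent samples, and tumour 2 lay within the range of the others. Flt4 rose 4.31-fold in mean FPKM (log2 change 1.21, SE 0.14, limma adjusted p = 3.48e-05). The blood vessel receptors, which are not among the 10 genes, also rose: Kdr from 2.46 ± 0.863 to 5.88 ± 1.33 FPKM (log2 change 1.01, SE 0.20), and Flt1 from 1.75 ± 0.402 to 4.36 ± 1.42 FPKM (log2 change 0.94, SE 0.19, limma adjusted p = 0.00088). With quantile normalization these changes were 0.52 for Kdr and 0.44 for Flt1 and still passed (limma adjusted p = 0.0164 and 0.0378). The soluble and membrane forms of Flt1 are not separated in the table.

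Nrp1, the neuropilin of blood vessels (chromosome 8, 128358591 to 128505476), was at 5.37, 8.78, 7.15, 7.52 and 6.84 FPKM in tumours 1 to 5. In adjacent samples 1 to 5 it was at 3.86, 2.48, 4.20, 1.75 and 2.32 FPKM. The groups did not overlap, and tumour 2 was the highest. Nrp1 rose 2.44-fold in mean FPKM (log2 change 1.08, SE 0.18, limma adjusted p = 0.000343). Subtracting medians left a change of 0.75, and quantile normalization left 0.60 (limma adjusted p = 0.00305 and 0.00692).

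Nrp2, the neuropilin linked to lymphatic vessels and semaphorin 3F (chromosome 1, 62703317 to 62818692), was at 8.53, 16.0, 7.22, 8.11 and 7.64 FPKM in tumours 1 to 5. In adjacent samples 1 to 5 it was at 13.5, 7.87, 10.5, 8.33 and 7.37 FPKM. The groups overlapped, and tumour 2 was far above the other tumours. Nrp2 did not pass (log2 change -0.03, SE 0.22, limma adjusted p = 0.913). Without tumour 2 it was at -0.22 (adjusted p = 0.215), and with medians subtracted at -0.36 (adjusted p = 0.172). The SE leaves a change of either sign possible for this gene.

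Of 12 semaphorin and plexin genes that partner with neuropilins, 8 passed the filter, of which 6 rose and 0 fell, also at an unadjusted p under 0.05 in limma (median log2 change 0.96). Over all tested genes 57.2% were higher and 19.3% lower. With medians subtracted 5 rose and 2 fell, and with quantile normalization 4 rose and 1 fell. Sema3f, a neuropilin 2 ligand known to repel vessels, was at 59.8, 25.2, 54.5, 43.6 and 55.5 FPKM in tumours 1 to 5 against 4.89 to 14.4 FPKM in adjacent samples, with tumour 2 the lowest tumour. It rose by 2.38 on the log2 scale (SE 0.31, limma adjusted p = 7.09e-05). Plxnd1, a plexin of endothelial cells, had a log2 change of 1.73 (SE 0.17).

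Hif1a (chromosome 12, 73901324 to 73947554) was at 54.2, 82.8, 58.3, 61.7 and 56.6 FPKM in tumours 1 to 5 and at 52.4, 64.3, 60.5, 68.6 and 49.98 FPKM in adjacent samples 1 to 5. Tumour 2 was above all other libraries, and the other 4 tumours lay within the adjacent range. Hif1a did not pass (log2 change 0.08, SE 0.13, limma adjusted p = 0.594), and its sign turned with medians subtracted (-0.25, adjusted p = 0.162) and without tumour 2 (-0.03, adjusted p = 0.808).

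Among 9 regulators and partners of the hypoxia-inducible factors, 3 rose and 2 fell, where 57.2% of all tested genes were higher and 19.3% lower. Epas1, which encodes HIF2A, was at 15.5, 28.2, 15.2, 21.7 and 17.5 FPKM in tumours 1 to 5 against 33.2 to 46.7 FPKM in adjacent samples, so every tumour was below every adjacent sample. It fell by 1.01 on the log2 scale (SE 0.16, limma adjusted p = 0.000233). Hif3a, a further family member, fell by 0.96 (SE 0.24). Arnt2, a dimer partner, rose from 1.02 ± 0.505 to 7.03 ± 2.63 FPKM (log2 change 1.96, SE 0.23), and Vhl, which marks HIF proteins for breakdown, rose by 0.53 (SE 0.09), or by 0.19 with quantile normalization. With medians subtracted 2 were higher and 6 lower, and with quantile normalization 2 and 4. Under these scalings 34.5% and 36.6% of all tested genes were higher, and 33.3% and 30.2% lower.

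Of 21 hypoxia target genes other than Vegfa, 4 rose and 10 fell, with a median log2 change of -0.35 against 0.35 for all tested genes. The shares over all tested genes were 57.2% higher and 19.3% lower. The largest rises were those of Loxl2, a matrix-modifying lysyl oxidase, at 2.56 (SE 0.22), and Ddit4, a stress-induced inhibitor of mTORC1, at 1.42 (SE 0.26). The largest falls were those of Higd1a, a mitochondrial protein, from 76.1 ± 10.5 to 26.8 ± 7.21 FPKM (log2 change -1.50, SE 0.16), and Pfkfb4, a regulator of glycolysis, at -1.32 (SE 0.13). With medians subtracted 4 rose and 13 fell, and with quantile normalization 4 rose and 11 fell. Under these scalings 34.5% and 36.6% of all tested genes were higher, and 33.3% and 30.2% lower.

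Of 10 tip cell and sprouting genes 8 rose and 1 fell, where 57.2% of all tested genes were higher and 19.3% lower. The median log2 change of the list was 1.29, against 0.35 for all tested genes. Under both other scalings 8 of the list also rose and 1 fell. Which cells of the tissue express these genes was not tested. Igfbp3, a binding protein of insulin-like growth factors, rose from 11.5 ± 4.40 to 42.1 ± 7.46 FPKM (log2 change 1.84, SE 0.23). Pdgfb, the ligand by which endothelium recruits pericytes, rose from 2.29 ± 0.809 to 10.3 ± 2.93 FPKM. Unc5b, a netrin receptor, fell from 31.1 ± 8.06 to 14.6 ± 3.26 FPKM (log2 change -1.04, SE 0.18). All 8 genes of the list of angiogenesis inhibitors rose (median log2 change 1.71), 7 of them also with quantile normalization. Col18a1, the source of endostatin, had a log2 change of 2.54 (SE 0.31), and Thbs2, a thrombospondin, of 2.16 (SE 0.31).

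**Figure D4:**
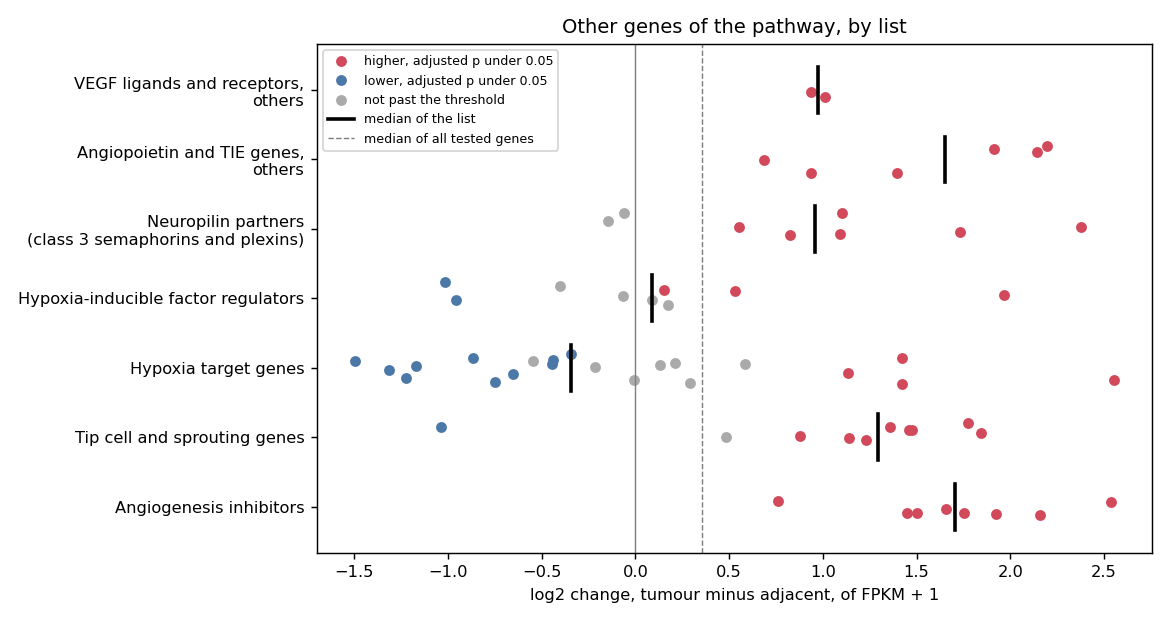
Log2 change of FPKM + 1, tumour minus adjacent (x axis), of the tested genes of 7 lists (y axis) outside the 10 genes described here. Points are genes coloured by the limma call, thick bars are list medians, and the dashed line is the median of all tested genes, 0.35. The hypoxia target list is spread to both sides of 0, and all angiogenesis inhibitors lie to the right.

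Markers of several stromal cell types also rose, where 57.2% of all tested genes were higher and 19.3% lower. All 16 endothelial markers rose (median log2 change 1.18), and their summed level was 136 to 198 FPKM in tumours and 35.6 to 77.4 FPKM in adjacent samples. Flt1, Kdr, Ptprb, Tek and Tie1 are 5 of these markers and were counted among the pathway genes above, so both counts share them. Tek did not pass under the other scalings, and the 11 markers in no pathway list rose under all 3. Cdh5, a junctional cadherin, rose by 1.87 (SE 0.18) and Eng, endoglin, by 1.85 (SE 0.20). Of 6 lymphatic markers 5 passed the filter and all 5 rose, with sums of 127 to 191 and 15.9 to 39.6 FPKM. The largest of these rises was that of Prox1, at 2.87, which colonic tumour epithelium also expresses, followed by Ccl21a, a lymphatic chemokine, at 2.11. Prox1 alone was at 53.1 to 138 FPKM in tumours and at 6.02 to 18.0 FPKM in adjacent samples, so the sums of this list do not give a lymphatic level. Lyve1 did not pass with quantile normalization (0.43, limma adjusted p = 0.13). Of 8 pericyte and smooth muscle markers 7 rose, among them Pdgfrb by 1.75 (SE 0.12) and Acta2 by 1.74 (SE 0.27), and the sums were 115 to 162 and 25.9 to 65.5 FPKM.

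Other cell types differed as well, beside the same shares of 57.2% higher and 19.3% lower over all tested genes. All 7 tested fibroblast markers rose, with sums of 600.2 to 1013 and 86.2 to 215 FPKM, led by Col1a1 at 3.00 and Col1a2 at 2.53. The fibroblast marker Fap, below the filter, went the other way, at 1.06 ± 0.129 and 0.512 ± 0.190 FPKM with every tumour below every adjacent sample, and with no filter it fell by 0.45 on the log2 scale (limma adjusted p = 0.00242). All 8 macrophage markers rose, with sums of 589 to 1016 and 94.0 to 287 FPKM, led by Lyz2 at 2.07 and Itgam at 1.87. All 6 neutrophil markers rose, led by S100a9 at 3.41 and S100a8 at 2.90, with sums of 144 to 481 and 12.3 to 153 FPKM, the latter in adjacent sample 5. Of 7 epithelial markers, with sums of 3987 to 6200 and 7094 to 8709 FPKM, 6 fell, led by Krt8 at -1.07 (-0.66 with quantile normalization) and Vil1 at -1.02, and Krt18 rose by 0.36 but not with medians subtracted (0.02, adjusted p = 0.843). Among B and plasma cell markers Cd79a fell by 1.25, a change that did not pass in 7 of the 10 fits that left out 1 library. Of 5 T cell markers 0 passed in limma, also at an unadjusted p under 0.05, with Cd4 at 2.40 ± 1.01 and 3.42 ± 1.90 FPKM and Cd3g at 2.04 ± 0.626 and 3.50 ± 2.04 FPKM. Tumour 2 had the highest sums of B and plasma cell markers, 488 FPKM against 29.7 to 141 in the other tumours, and of T cell markers, 27.0 against 8.07 to 13.3 FPKM. The part of these cell types in the changes of the 10 genes was not tested.

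Set against the endothelial markers within each library, the 10 genes fell into different patterns. The measure is the log2 FPKM of a gene minus the mean log2 FPKM of the 16 markers, which was itself 1.54 higher in tumours. Nrp1 stayed nearly level with the markers, at 0.17 ± 0.15 in adjacent samples and -0.02 ± 0.16 in tumours (SD, n = 5), and Vegfc was also close, at -0.45 ± 0.43 and -0.73 ± 0.52. Angpt2 was higher beside the markers in tumours, at -1.63 ± 0.72 and 0.19 ± 1.00, with tumour 2 at -1.52 against 0.23 to 1.07 in the other 4. Its groups overlapped, and the difference of 1.82 was 1.12 on the log2(FPKM + 1) scale. Pgf was 1.06 higher beside the markers, with overlapping groups, and 0.45 higher on the log2(FPKM + 1) scale. Flt4 was 0.65 higher, with groups that did not overlap on this scale, but on the log2(FPKM + 1) scale its difference was 0.01. Vegfa, Vegfb, Nrp2 and Hif1a were 1.60, 1.30, 1.57 and 1.46 lower beside the markers. For each of them every tumour was below every adjacent sample, also on the log2(FPKM + 1) scale. As these 4 genes did not pass the limma test, this mostly restates the rise of the markers. Any gene without a change would lie lower on this measure, and the share of all genes that separate so was not computed. Angpt1 differed by 0.50 with overlapping groups here, and by -0.76 on the log2(FPKM + 1) scale, where so low a level is compressed.

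**Figure D5:**
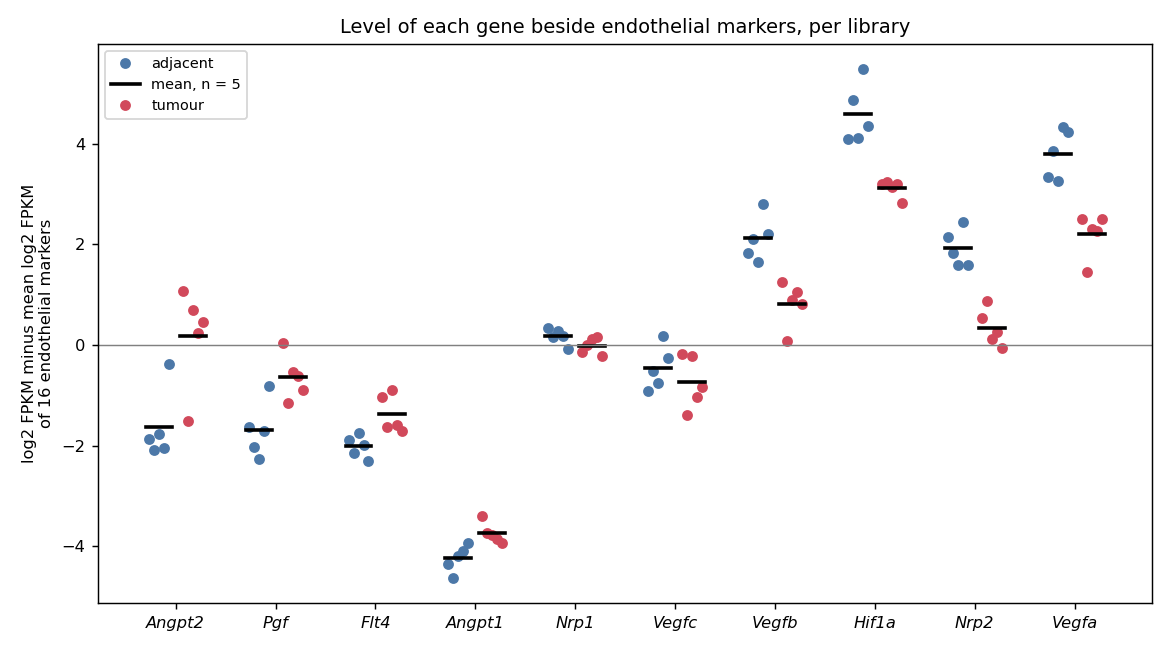
Log2 FPKM of each of the 10 genes minus the mean log2 FPKM of 16 endothelial markers (y axis), for each adjacent and tumour library, with genes on the x axis ordered by the difference between groups. Black lines are means of 5 libraries. Nrp1 lies near 0 in both groups, Angpt2 and Pgf lie higher in tumours, and Vegfa, Vegfb, Nrp2 and Hif1a lie lower. The marker mean was itself 1.54 higher in tumours, so a gene without a change lies lower.

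The genes whose course over the 10 libraries was nearest to each of the 9 tested genes were found by the root mean square difference of log2(FPKM + 1), centred over the libraries. Nearest to Angpt2 were Pgm2l1 (0.16) and Mapk4 (0.17), and nearest to Pgf were Syt11 and Fmnl2 (both 0.10). Vegfc was followed by Add3 (0.07) and Cbfb (0.09), Flt4 by Plekhh2 (0.09) and Nin (0.11), and Nrp1 by Tns1 (0.08) and Tmem47 (0.11). Vegfa had Ube4bos3 (0.12) and Fahd2a (0.13) as its nearest genes, and Vegfb had Dhrs1 (0.06) and Jmjd8 (0.07). Nrp2 had Asns and Tbc1d4 (both 0.17), and Hif1a had Tnfrsf1a and Casp8 (both 0.09). These distances include the difference between groups and are a description of these libraries.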

How the data were processed

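The deposited table holds FPKM per gene symbol, which the authors computed from polyadenylated RNA libraries (TruSeq RNA v2, Illumina HiSeq, per the labels' protocols). Cufflinks 2.2.1, RSEM 1.2.15, Salmon 0.8.2 and TopHat2 2.1.0 are among the tools in the submitters' processing notes, with build mm10. Which of them made the table is not given. Because FPKM are relative to a library's total, a gene's level shifts with the others. One line of text was left out. Depth was estimated from values of genes with 1 transcript of 600 to 1600 bases, of which 76.8% to 85.1% per library came within 0.2 of whole fragment numbers. No interval was computed from it.

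Group was the only term in limma 3.58.1 (R 4.3.3, trend, robust, two-sided), fitted to log2(FPKM + 1) of the 13016 genes whose mean over all libraries reached 1 FPKM and tested on simulated data. The ratio was tested with scipy 1.17.1, although the plan was to leave it untested at so low a level of Angpt1. Libraries differed in at least 17741 genes from each other. The members, 7 pathway lists and 9 marker lists were chosen with earlier results of these data known. Alternatives were other pseudocounts, filters and scalings, sample quality weights, a replicate block and leaving out libraries; the level beside endothelial markers with no pseudocount was added after seeing the data. From each list the 2 largest rises and falls past the threshold are named, or the 2 most abundant genes where none passed. Flt1, Kdr, Tek, Tie1 and Epas1 are always named, and Vegfd, Epcam, Fap, Ptprb, Angptl4 and Lyve1 are named besides. One gene that the rule names is not reported here. Genes named by clone or as Gm, LOC or Rik were left out of the nearest genes. Whether like numbers pair the samples is not settled: deviations of like-numbered libraries correlated over 0.1 in 3 of 5 pairs. The numbers were therefore used as a block only in an alternative fit.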

Additional observations from a re-analysis of the deposited data

Results flagged for a closer look

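In 5 of 22 groups of 5 libraries examined, 1 library lay far from the others by Dixon's criterion, which chance alone meets in about 1 of 20 groups. Vegfa was at 45.7 FPKM in adjacent sample 5 against 30.9 to 33.2 FPKM in the other adjacent samples. Pgf was at 6.05 FPKM in tumour 1 against 3.95 to 4.54 FPKM in the other tumours. Nrp2 was at 16.0 FPKM in tumour 2 against 7.22 to 8.53 FPKM, and Hif1a at 82.8 FPKM in the same tumour against 54.2 to 61.7 FPKM. The ratio of Angpt2 to Angpt1 was 11.8 in adjacent sample 5 against 4.11 to 5.78 in the other adjacent samples. Pgf stayed past the threshold without tumour 1 (log2 change 1.56, limma adjusted p = 7.13e-05).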

How the results depend on the processing

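The calls of Vegfc, Pgf, Angpt2, Flt4 and Nrp1 were kept in every fit that tested them; a filter at a mean of 5 FPKM left only Nrp1 of these. At the low level of Angpt1 the log2 change depended on the pseudocount, at 1.45 with 0.1, 0.44 with 1 and 0.11 with 5. Its levels also corresponded to the fewest fragments of the 10 genes, about 8 to 22 per adjacent library. Genes higher and lower numbered 4486 and 4329 with medians subtracted, and 4759 and 3934 with quantile normalization. Vegfa was at -0.39 with medians subtracted, which passed, and changed sign with sample quality weights (0.069) and without tumours 2 and 4 (0.10). Vegfb changed sign with medians subtracted and quantile normalization (both -0.11), and passed with sample quality weights (0.26, adjusted p = 0.00661) and without tumours 2 and 4 (0.31). Hif1a changed sign with medians subtracted (-0.25) and without tumours 2 and 4 (-0.059). Leaving out 1 library gave -0.17 to 0.056 for Vegfa, 0.18 to 0.32 for Vegfb, -0.22 to 0.10 for Nrp2, -0.027 to 0.13 for Hif1a and 1.18 to 1.75 for the log2 ratio of Angpt2 to Angpt1. Semaphorin and plexin genes numbered 10 higher with no filter, and 2 and 1 lower with medians subtracted and quantile normalization; regulators of hypoxia-inducible factors numbered 6 and 4 lower with these scalings. With a filter at a mean of 5 FPKM 1 gene of the angiopoietin and TIE list, 5 sprouting genes and 4 inhibitors were higher and 1 regulator was lower, because fewer genes were tested. Otherwise the cause was not tested.

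Numbers 1 to 5 are shared by the titles of both groups and the series text calls the tissues matched, but the source label names a single mouse throughout, so whether the numbers pair the samples is not settled. Deviations of like-numbered libraries correlated by 0.02 to 0.42, over 0.1 in 3 of 5 pairs, and 4 of 10 libraries correlated best with their own number. Unlike-numbered libraries ranged from -0.44 (tumour 2 with adjacent sample 5) to 0.32 (tumour 4 with adjacent sample 2). With the replicate block 7534 genes were higher and 2533 lower, Vegfb passed (0.22, adjusted p = 0.0331), and no other of the 9 calls changed. With sign flips over like-numbered pairs the ratio, at 1.32, had an exact p of 0.125; the smallest two-sided p that 5 pairs allow is 0.0625, so this test could not pass.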

Other observations

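Among the adjacent samples the extremes of the 10 genes fell mostly on numbers 3, 4 and 5. Adjacent sample 4 was the lowest of its group for Vegfa, Pgf, Angpt2, Flt4 and Nrp1, and it also had the lowest mean log2 FPKM of the endothelial markers, 0.62 against 1.15 to 1.80 in the others, and the lowest fibroblast and macrophage sums. Adjacent sample 3 was the highest of its group for Vegfc, Angpt1, Flt4 and Nrp1 and had the highest endothelial mean, 1.80. Adjacent sample 5 was the highest for Vegfa, Vegfb, Pgf and Angpt2 and had the highest neutrophil sum.

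Within the tumours, tumour 2 was at an extreme in 8 of the 10 genes. It was the lowest tumour for Vegfa, Vegfb, Pgf and Angpt2 and the highest for Angpt1, Nrp1, Nrp2 and Hif1a. Tumour 1 was highest in 2 and lowest in 2, tumour 3 in 2 and 1, tumour 4 in 1 and 3, and tumour 5 in 1 and 0. Tumour 2 had the highest endothelial mean, 3.13 against 2.56 to 3.00, and the highest sum of epithelial markers, 6200 FPKM against 3987 to 5178 FPKM. Its fibroblast, macrophage and pericyte sums were also the highest of the tumours, at 1013, 1016 and 162 FPKM. Its neutrophil sum was the lowest, at 144 FPKM. The mean of 7 fibroblast markers on the log2(FPKM + 1) scale was itself 2.04 higher in tumours, so a gene that rose less lies lower beside it. Angpt2 and Pgf did not separate the groups on this measure, with differences of 0.27 and -0.40, and Vegfc and Flt4 overlapped too. Nrp1, which rose, was 0.96 lower beside these markers, with every tumour below every adjacent sample. The same separation was seen for Vegfa, Vegfb, Angpt1, Nrp2 and Hif1a. Angpt1, Angpt2, Pgf and Flt4 were below 1 FPKM on average in adjacent tissue, where this scale compresses a change. The level beside fibroblast markers was not computed without a pseudocount. The differences of these low genes, and the separation of Angpt1, are therefore to be read for this scale only.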
